A study of Mus musculus with 6 samples.

Results

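The core type I interferon effectors described here are 9 mouse genes, Ifit1, Ifit2, Ifit3, Isg15, Isg20, Usp18, Rsad2, Mx1 and Mx2, chosen by gene symbol out of 24421 genes in the deposited table. All 9 had a row and all 9 passed the filter on low counts. RNA was sequenced by a poly(A) method from bone marrow cells of C57BL/6 mice that had been sorted on dendritic cell markers. The 3 WT libraries came from wild-type mice, and the 3 TCL libraries from mice carrying murine chronic lymphocytic leukaemia (CLL), which the series describes as an adoptive transfer model, in which leukaemic cells are moved into recipient mice. Libraries are named by the running numbers of the table's columns, WT 3, 7 and 9 and TCL 4, 8 and 10. The sources used here do not give the age and sex of the mice, the number of mice behind a library, the sort markers or the time after transfer. P-values below therefore rest on the differences among libraries of a group, which may in part be technical.

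Type I interferons bind a receptor made of Ifnar1 and Ifnar2, whose kinases act on transcription factors, Stat2 and Irf9 among them, that bind the interferon-stimulated response element (ISRE) in the promoters of effector genes. The effectors block viruses at several steps: Ifit proteins capture foreign RNA, Isg15 is a ubiquitin-like protein that is attached to other proteins, Isg20 degrades RNA, Rsad2 (viperin) makes a chain-terminating nucleotide, and Mx proteins are GTPases that trap viral particles. Usp18 removes Isg15 from proteins and dampens the receptor, so it closes the loop. Dendritic cells carry this programme at a resting level and raise it on exposure to interferon.

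The sequence these genes are best known to share is shown first, because the ISRE is the element through which the interferon signal reaches them. RefSeq promoter windows (GRCm38.p6, 250 bases before to 50 after a transcript start) existed for 6 of the 9 genes in the table used here, namely Ifit1, Ifit2, Ifit3, Isg15, Isg20 and Rsad2. The ISRE letters, GAAA and again GAAA with any 2 bases (NN) between them, searched on both strands, stood in a window of 4 of these 6 genes, Ifit1, Ifit3, Isg15 and Rsad2, and of 1079 of all 27025 genes with a window (3.99%). A stretch of 100 bases around the matches is printed for each of the 4, read along the gene's own strand, with the matched letters in capitals.
Ifit1, chr19:34640749-34640848, plus strand: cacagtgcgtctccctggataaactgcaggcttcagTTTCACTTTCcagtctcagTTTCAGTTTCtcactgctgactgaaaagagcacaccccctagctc
Ifit3, chr19:34583345-34583444, plus strand: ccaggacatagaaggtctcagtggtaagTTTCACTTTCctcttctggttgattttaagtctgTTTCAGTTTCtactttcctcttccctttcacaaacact
Isg15, chr4:156200836-156200935, minus strand: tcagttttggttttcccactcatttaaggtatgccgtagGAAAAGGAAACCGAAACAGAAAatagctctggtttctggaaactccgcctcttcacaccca
Rsad2, chr12:26456518-26456617, minus strand: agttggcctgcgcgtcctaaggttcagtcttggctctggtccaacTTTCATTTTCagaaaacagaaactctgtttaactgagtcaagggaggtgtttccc
The Ifit1 matches begin 104 and 85 bases before the start, those of Ifit3 156 and 122 bases, and that of Rsad2 120 bases before it. Isg15 has 3 matches that overlap one another, beginning 78, 72 and 66 bases before the start. The Ifit2 and Isg20 windows hold none of these letters, and each holds instead a match to TTCNNNGAA, the letters of the interferon-gamma activated site (GAS), which stood in the windows of 2582 of 27025 genes (9.55%). A match describes letters in a window and does not show that a factor was bound. Genes of other interferon lists held the ISRE letters too, 17 of 34 other type I interferon-induced genes with a window and 9 of 16 genes that lean toward interferon-gamma.

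None of the 9 effectors passed the test between TCL and WT. In edgeR's quasi-likelihood test 0 of 9 had an adjusted p under 0.05, and 0 had an unadjusted p under 0.05. Among all 13010 genes tested, 4.7% were called (612 genes, 2.04% higher and 2.67% lower in TCL) and 22.4% had an unadjusted p under 0.05. The median log2 fold change of the 9 was 0.09, with 6 values above and 3 below 0, and the median of all genes tested was 0.00. DESeq2, limma-voom and limma-trend also called 0 of 9, and 11.2%, 3.8% and 4.52% of all genes. By the adjusted p in the authors' deposited table, too, 0 of 9 were under 0.05, against 8.11% of all genes with such a value. At an unadjusted p under 0.05 DESeq2 had 1 of the 9, Isg20 (23.8% of all genes), and so did the authors' deposited table (p = 0.0384). Levels below are CPM, read counts scaled to the effective library size that edgeR computes, and log2 fold changes are TCL over WT.

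**Figure D1:**
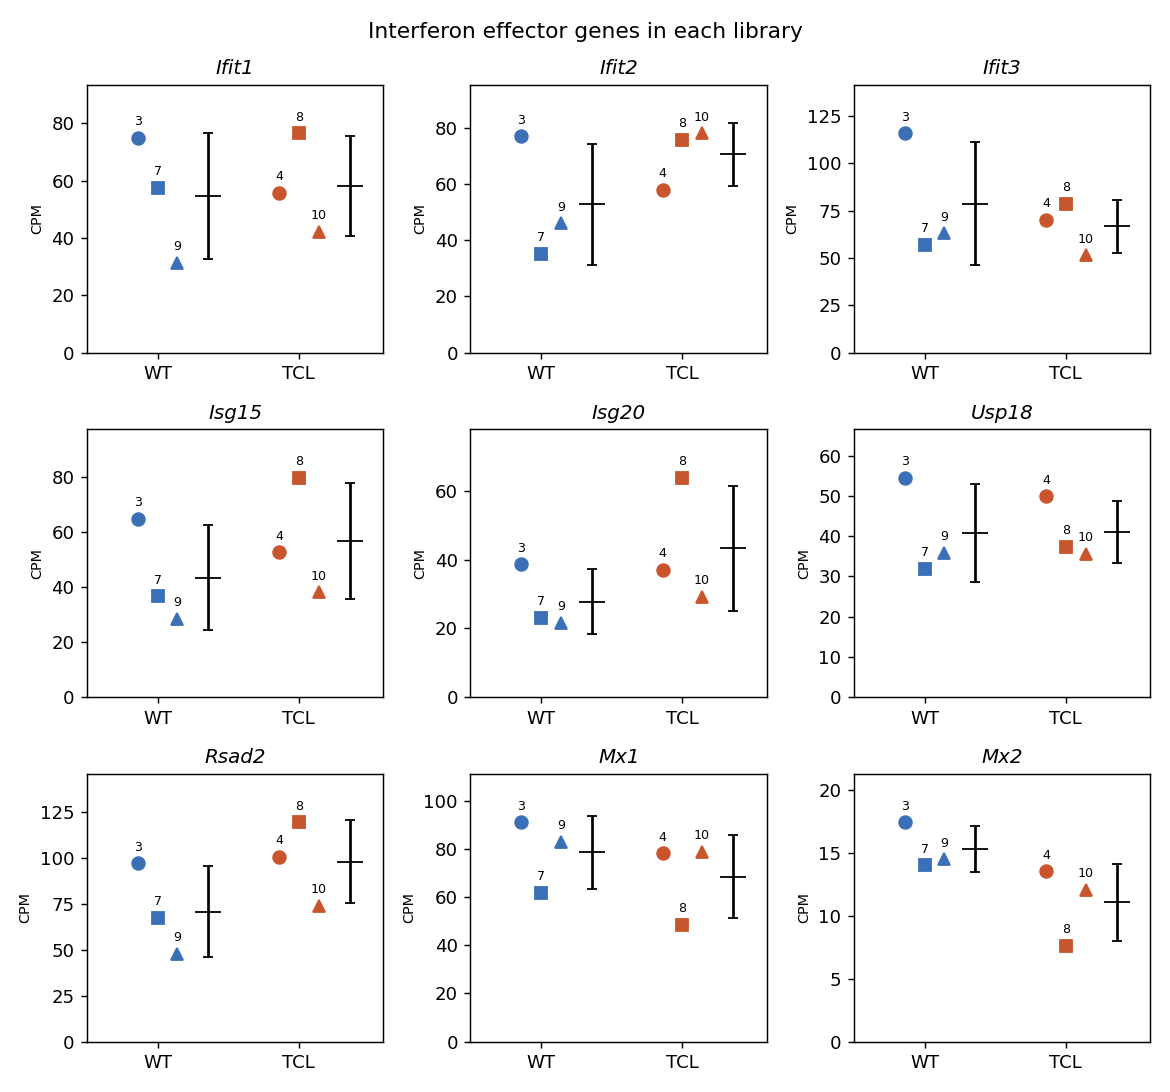
Level of each effector gene in CPM (vertical axes, linear, from 0) in 3 WT (blue) and 3 TCL (orange) libraries, each point labelled with its library number; black bars are the group mean and SD. WT library 3 is the highest WT point in all 9 panels, and the groups overlap in every panel but that of Mx2.

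The Ifit genes, which encode RNA-binding proteins built of tetratricopeptide repeats, lie side by side on chromosome 19 (GRCm38). Ifit1, at 34640871 to 34650009, had 75.1, 57.4 and 31.4 CPM in WT libraries 3, 7 and 9 and 55.7, 76.6 and 42.2 CPM in TCL libraries 4, 8 and 10. Both groups spread over a similar range and overlapped almost fully. The fold change was 1.07 (95% interval 0.657 to 1.73), with an adjusted p of 0.886 by edgeR.

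Ifit2, at 34550694 to 34576419 of the same chromosome, had 76.9, 35.2 and 46.0 CPM in WT and 57.8, 75.7 and 78.1 CPM in TCL. WT library 3 stood with the TCL libraries, and the remaining WT libraries lay below all of them. Its log2 fold change was 0.42 ± 0.27 (SE; edgeR adjusted p 0.377).

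Ifit3, at 34583531 to 34588731, had 116 CPM in WT library 3, its highest value, against 57.0 and 63.0 CPM in WT libraries 7 and 9. The TCL libraries had 70.1, 78.7 and 51.3 CPM, within the WT range but for TCL library 10, which was the lowest of all. The log2 fold change was -0.24 ± 0.27 (SE; edgeR adjusted p 0.638). Ifit3 has a close copy, Ifit3b: 51.2% of the 50-base stretches of Ifit3 transcripts also occur in Ifit3b, so the split of reads between them is uncertain. Ifit3b had 18.9 ± 5.09 CPM in WT against 15.9 ± 1.02 CPM in TCL (SD, n = 3 each), a log2 fold change of -0.25, close to that of Ifit3. Ifit1 shares less with its copies, 7.06% of such stretches with Ifit1bl2 and 0.614% with Ifit1bl1.

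Isg15 lies at 156199424 to 156200818 of chromosome 4. It had 64.9, 36.7 and 28.5 CPM in WT libraries 3, 7 and 9 and 52.7, 79.8 and 38.2 CPM in TCL libraries 4, 8 and 10. TCL library 8 was the highest and WT library 9 the lowest, 2.80-fold apart, while the group means were 43.4 ± 19.1 and 56.9 ± 21.2 CPM. The fold change was 1.31 (95% interval 0.782 to 2.20), with an adjusted p by edgeR of 0.513.

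Usp18, the protease that cleaves Isg15 from its targets, had 54.5, 31.9 and 35.9 CPM in WT and 49.9, 37.4 and 35.7 CPM in TCL. Its group means, 40.8 ± 12.1 and 40.98 ± 7.77 CPM, were the closest of the 9 genes, with a fold change of 1.01 and a 95% interval of 0.704 to 1.43 (adjusted p by edgeR 0.99). Usp18 lies at 121245906 to 121270917 of chromosome 6, where 124 of its exon bases overlap a long noncoding RNA on the other strand. The sources used here do not give the strand setting of the counting, so reads of the overlap cannot be assigned.

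The enzymes that attach Isg15 were read beside these genes, and 1 of 5 passed the test in edgeR, against 4.7% called among all genes. Uba7, the enzyme that activates Isg15 for conjugation, rose from 73.3 ± 12.2 to 123 ± 17.2 CPM, 0.74 on the log2 scale (SE 0.17, edgeR adjusted p 0.0427). Its call was lost on leaving out any single library but TCL library 8, with adjusted p of 0.141, 0.126 and 0.0555 without WT libraries 3, 7 and 9 and 0.103 and 0.115 without TCL libraries 4 and 10. Herc6, the main mouse ligase for Isg15, had a log2 fold change of 0.62 ± 0.19 (SE; edgeR adjusted p 0.0932), and DESeq2 called it (adjusted p 0.0368). Ube2l6, the conjugating enzyme, had one of 0.14 ± 0.19 (edgeR adjusted p 0.687). Trim25 and Arih1 had 0.06 and 0.16.

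Isg20, an RNA exonuclease gene at 78913424 to 78920396 of chromosome 7, had the highest fold change of the 9. It had 38.6, 23.2 and 21.7 CPM in WT and 37.0, 63.8 and 29.2 CPM in TCL. TCL library 8 stood far above the rest, and WT library 3 exceeded both of the other TCL libraries. The fold change was 1.56 (95% interval 0.956 to 2.54), with an adjusted p by edgeR of 0.263.

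Rsad2, at 26442746 to 26456452 of chromosome 12, had 96.9, 67.4 and 47.7 CPM in WT and 100.3, 119 and 73.95 CPM in TCL. Of the TCL libraries, 4 and 8 lay above every WT library and 10 lay inside the WT range. The log2 fold change was 0.47 ± 0.26 (SE; edgeR adjusted p 0.321). Cmpk2, a nucleotide kinase whose gene neighbours Rsad2 and is induced with it by interferon, had 48.3 ± 11.3 and 74.0 ± 9.71 CPM, a log2 fold change of 0.62 ± 0.19 (SE; edgeR adjusted p 0.102). DESeq2 called Cmpk2 (adjusted p 0.0427).

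The Mx genes lay on the other side of 0. Mx1, at 97447035 to 97462907 of chromosome 16, had 91.0, 61.6 and 82.9 CPM in WT libraries 3, 7 and 9 and 78.2, 48.6 and 78.7 CPM in TCL libraries 4, 8 and 10. The TCL libraries overlapped the WT range except for TCL library 8, the lowest of all. Its log2 fold change was -0.20 ± 0.22 (SE; edgeR adjusted p 0.629). In C57BL/6, as in most laboratory strains, the Mx1 gene carries a deletion and makes no working antiviral protein.

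Mx2, at 97535308 to 97560900 of chromosome 16, is annotated by GENCODE as a polymorphic pseudogene. It had 17.5, 14.04 and 14.5 CPM in WT and 13.5, 7.63 and 12.1 CPM in TCL. All TCL libraries were below all WT libraries, as in 28.2% of all genes tested for groups that do not overlap in either direction. The log2 fold change was -0.47 (SE 0.25), with a 95% interval of -1.04 to 0.10 and an adjusted p by edgeR of 0.306. Mx2 had 884 reads in WT and 820 in TCL, the fewest of the 9 genes, and 4.38% of its 50-base stretches are shared with Mx1.

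**Figure D2:**
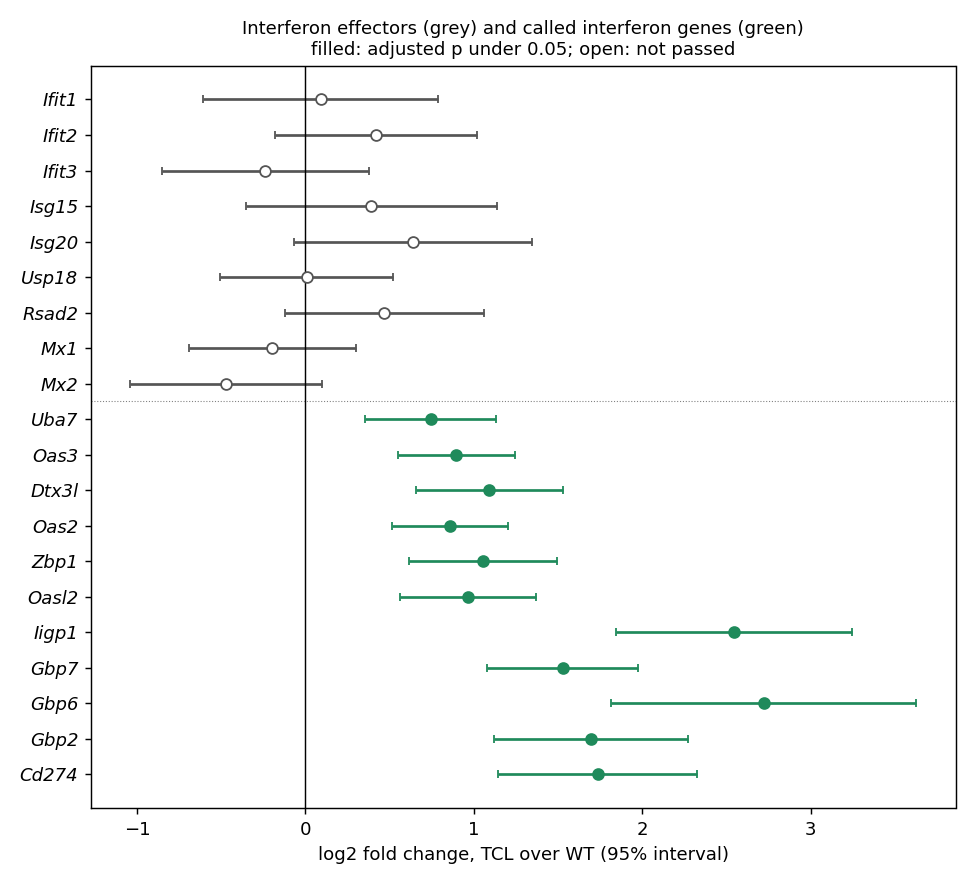
Log2 fold change of TCL over WT (horizontal axis) with its 95% interval for the 9 effectors (grey) and for the called genes among those named from other interferon lists (green); filled points have an adjusted p under 0.05. All 9 effector intervals span 0, from Mx2 at -0.47 to Isg20 at 0.64, and the green intervals lie above 0.

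The intervals bound what these libraries allow. The upper ends ran from 1.07-fold for Mx2 to 2.54-fold for Isg20, and the lower ends from 0.487-fold for Mx2 to 0.956-fold for Isg20. For Usp18, Mx1 and Ifit3 the upper ends were 1.43, 1.23 and 1.30, so a 2-fold rise lay outside the interval. For Ifit2, Isg15, Isg20 and Rsad2 they were 2.03, 2.20, 2.54 and 2.08, and a 2-fold rise lay inside it. In bulk RNA a change in the number of cells that carry a transcript and a change in transcript per cell cannot be told apart.

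For each of the 9 effectors the libraries of 1 group at least were further apart than the group means. WT library 3 was the highest WT library for 9 of 9 effectors, where it was highest for 30.0% of all genes tested. It was also the highest WT library for 34 of 42 other type I interferon-induced genes and 17 of 24 genes that lean toward interferon-gamma. Within WT the highest library exceeded the lowest by 1.24-fold for Mx2 to 2.39-fold for Ifit1. In TCL no library led throughout: TCL library 8 was highest for 5 of 9 (36.1% of all genes), TCL library 10 was lowest for 6 of 9 (35.1% of all genes).

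Without WT library 3, edgeR still called 0 of 9 effectors and 2.1% of all genes, but the median log2 fold change of the 9 became 0.40, and 4 of them had an unadjusted p under 0.05, against 17.6% of all genes in that fit. These 4 were Ifit2 at 0.80 (adjusted p 0.117), Isg15 at 0.81 (0.233), Isg20 at 0.96 (0.19) and Rsad2 at 0.77 (0.178). Without WT library 9 the median was -0.06. Without TCL library 10 it was 0.30, and 2 of 9, Isg20 and Rsad2, had an unadjusted p under 0.05, against 15.6% of all genes in that fit. Without WT library 7, TCL library 4 or TCL library 8 it was 0.13, 0.13 and 0.07, so the sign turned for WT library 9 alone of the 6. The count of called effectors was 0 on leaving out any of them.

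TCL library 8 split the effectors. Ifit1, Isg15, Isg20 and Rsad2 were highest of all libraries there, 0.51, 0.76, 0.94 and 0.56 above their own mean on the log2 scale. Mx1 and Mx2 were lowest of all libraries there, at -0.57 and -0.75. Usp18 was near its mean in that library, at -0.10. TCL library 8 also had the most RNA of the red cell precursor list, a summed 296 CPM against 84.0 and 71.0 CPM in TCL libraries 4 and 10, with Hba-a1 at 0 reads in every library. Of plasmacytoid dendritic cell markers it had 717 CPM against 453 and 464 CPM in TCL libraries 4 and 10, and WT libraries 3, 7 and 9 had 481, 792 and 478 CPM. The highest of these, WT library 7, was the lowest WT library for 5 of 9 effectors (40.5% of all genes). The markers of that list went different ways. Ly6d and Tcf4 were highest in WT library 7, at 268 and 208 CPM, and Spib in WT library 9, at 154 CPM. Siglech, Ccr9, Pacsin1, Cox6a2 and Klk1 were highest of all libraries in TCL library 8, at 136, 105, 27.2, 50.7 and 54.6 CPM. Of general dendritic cell markers TCL library 8 had 15678 CPM against 36760 and 32955 CPM. Most of its sum was Cd74, H2-Aa and H2-Ab1, at 8879, 3228 and 3122 CPM. Itgax had 375 CPM in TCL library 8 against 516 and 655 CPM in TCL libraries 4 and 10, and Zbtb46 3.92 against 9.01 and 15.5 CPM. Flt3, at 69.6 CPM, lay between the 60.0 and 115 CPM of those libraries. The part of these cells in the effector levels was not tested.

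**Figure D3:**
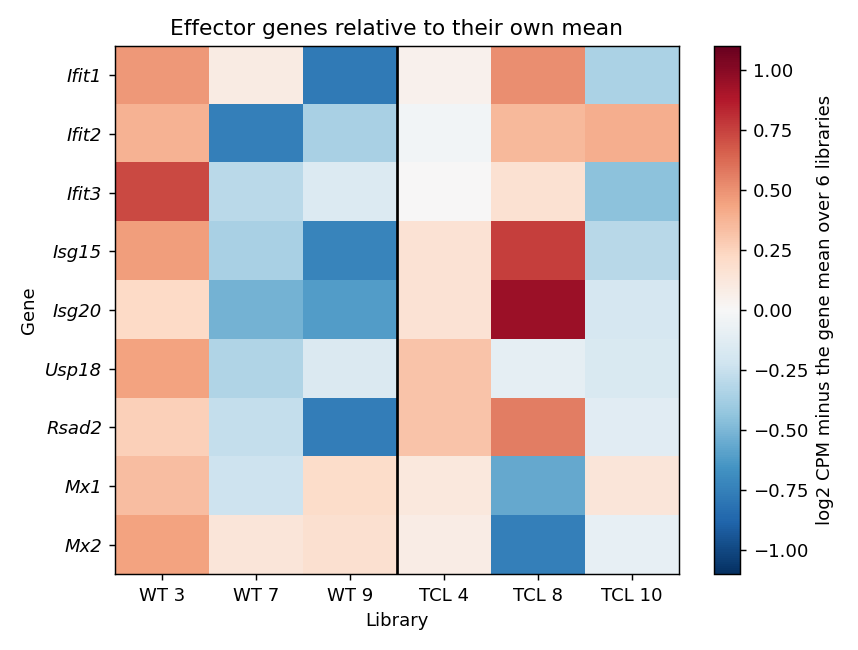
Log2 CPM of each effector minus its own mean over 6 libraries (colour scale), genes in rows and libraries in columns, WT left and TCL right of the line. WT library 3 is above the mean for all 9 genes, and TCL library 8 is high for Isg15 and Isg20 at 0.76 and 0.94 and low for Mx1 and Mx2 at -0.57 and -0.75.

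Per kilobase of exon, Isg15 had the highest counted level of the effectors. It had 57.3 ± 25.3 CPM per kb in WT and 75.3 ± 28.0 CPM per kb in TCL. Ifit3 followed with 45.0 ± 18.5 and 38.2 ± 8.02 CPM per kb, below Isg15 in every library. The closest pair was in WT library 9, with 37.7 CPM per kb for Isg15 and 36.1 for Ifit3. As 51.2% of the 50-base stretches of Ifit3 also occur in Ifit3b, reads of Ifit3 may have gone uncounted. Its level, percentile and rank against Isg15 are therefore uncertain. Mx1, Ifit1, Rsad2, Isg20, Usp18 and Ifit2 formed a middle block in WT, between 20.7 ± 4.01 CPM per kb for Mx1 and 13.4 ± 5.51 CPM per kb for Ifit2. The ranges of Mx1 and Ifit2 overlapped, but within each WT library Mx1 was above Ifit2. Mx1 had 24.1, 16.3 and 21.9 CPM per kb in WT libraries 3, 7 and 9, and Ifit2 19.6, 8.96 and 11.7. Mx2 was lowest, with 4.24 ± 0.513 CPM per kb in WT and 3.06 ± 0.851 CPM per kb in TCL. By mean level per kilobase Isg15 stood at percentile 93.9 of the tested genes, Ifit3 at 89.8, the middle block at 73.6 to 80.6 and Mx2 at 40.8. The effectors other than Mx2 were thus well expressed in both groups, with or without leukaemia.

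The ligands were at or near 0. Of 21 interferon genes listed, 18 had 0 reads in all libraries, among them every Ifna gene of the list, which allows up to 0.0519 CPM in WT and 0.0404 CPM in TCL per gene, taking 3 reads over a group as the limit and counting error only. The Ifna genes are near-identical copies, among which the authors' counting could have left reads unassigned. Ifnb1 had 6 and 2 reads in WT libraries 7 and 9, 3 reads in TCL library 10 and 0 in the rest. Ifng, the type II interferon made by T and NK cells, had 16, 37 and 71 reads in WT libraries 3, 7 and 9 and 49, 33 and 47 reads in TCL libraries 4, 8 and 10, with a log2 fold change of -0.25 ± 0.55 (SE; edgeR adjusted p 0.821).

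Genes of the receptor and of signalling were read for the same contrast, without a count over their list. Stat2, a transcription factor of the type I pathway, had 112 ± 23.2 and 164 ± 34.5 CPM in WT and TCL, and its log2 fold change was 0.55 ± 0.21 (SE; edgeR adjusted p 0.16). Irf9, a DNA-binding partner of Stat2, had 151 ± 16.9 and 173 ± 20.3 CPM, a log2 fold change of 0.19 ± 0.16 (SE; edgeR adjusted p 0.495). The receptor chain gene Ifnar2 had 380 ± 35.7 and 298 ± 34.2 CPM and a log2 fold change of -0.35 (adjusted p 0.221), the kinase gene Jak1 had 0.41 (adjusted p 0.209), and Irf5, a factor that induces interferon genes, -0.32 (adjusted p 0.264). None of these 5 genes passed the test in edgeR, DESeq2, limma-voom or limma-trend.

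Other genes that type I interferon induces were read from a list of their own. Of 42 such genes 8 rose, 0 fell and 34 did not pass, against 4.7% called among all genes, with 36 values above 0, 6 below it and a median log2 fold change of 0.43. On leaving out WT library 3, 7 or 9 the median of this list was 0.58, 0.32 and 0.44. That of the effectors was 0.40, 0.13 and -0.06. On leaving out TCL library 4, 8 or 10 the list had 0.44, 0.43 and 0.43, and the effectors 0.13, 0.07 and 0.30. The effectors Isg20 and Rsad2, at 0.64 and 0.47, lay above the median of 0.43. The 5 with the smallest p were Oas3 and Oas2, which make the messenger that activates RNase L, Oasl2 of the same family, Dtx3l, a ubiquitin ligase, and Zbp1, a nucleic acid sensor, with log2 fold changes of 0.90, 0.86, 0.97, 1.09 and 1.06. Oasl2 had 186, 120 and 170 CPM in WT and 296, 320 and 314 CPM in TCL, with no overlap. Dtx3l had 78.5, 65.2 and 77.6 CPM in WT and 158, 119 and 195 CPM in TCL, again with no overlap. Both were picked by their small p, and the groups did not overlap for 23 of the 42 genes and 28.2% of all genes tested. The count of 8 became 2 when WT library 7 was left out, 1 when WT library 9 or TCL library 4 was, and 5 when TCL library 10 was.

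Genes that lean toward interferon-gamma had the highest median of these lists. Of 24 tested 9 rose, 0 fell and 15 did not pass, against 4.7% called and 2.04% higher among all genes. There were 23 values above 0, and the median log2 fold change was 0.65. Gbp2, a guanylate-binding protein that attacks membranes around microbes, rose from 80.1 ± 21.4 to 260 ± 76.3 CPM (log2 fold change 1.70, SE 0.26). Iigp1, Gbp7, Gbp6 and Cd274, the other genes with the smallest p, had log2 fold changes of 2.54, 1.53, 2.72 and 1.74. The lists were chosen with earlier results of these data known and were not tested against one another. The highest effector, Isg20 at 0.64, lay just under the median of the interferon-gamma list.

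**Figure D4:**
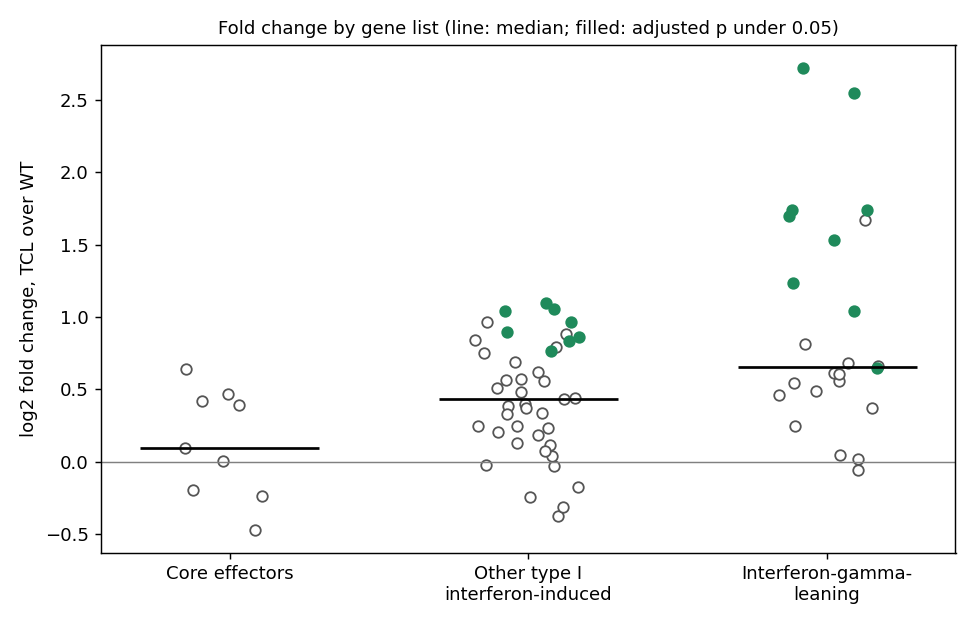
Log2 fold change of TCL over WT (vertical axis) for the tested genes of 3 lists, 1 point a gene; the black line is the list median and filled points have an adjusted p under 0.05. Medians are 0.09 for the effectors, 0.43 for other type I interferon-induced genes and 0.65 for genes that lean toward interferon-gamma.

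The genes whose pattern over the 6 libraries was most like the mean of the 9 effectors were not interferon genes of any list. Among 10100 genes with at least 5 CPM on average, Fkbp1b, Pdcd10, Ddx28, Oxnad1 and Skap2 had the highest Pearson r with that mean, 0.98, 0.97, 0.97, 0.96 and 0.96. Fkbp1b had 19.6, 10.9 and 10.98 CPM in WT libraries 3, 7 and 9 and 15.1, 16.9 and 12.9 CPM in TCL libraries 4, 8 and 10, so it too was highest in WT library 3. That mean, of values centred and scaled for each effector, stood at 0.98 in WT library 3 and next at 0.32 in TCL library 4. It averages effectors that TCL library 8 split, so a gene like the mean need not be like each effector. With 6 points picked from so many genes, these values are a description of shared highs and lows. Ifit3b had an r of 0.79 and Cmpk2 of 0.62.

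The labelled cell type was checked against its markers. Itgax, the integrin of most dendritic cells, had 475 ± 79.7 CPM in WT against 515 ± 139.7 CPM in TCL. H2-Aa, a class II chain, had 11607 ± 1961 and 5870 ± 2327 CPM (edgeR adjusted p 0.097), and Flt3, a growth factor receptor of dendritic cells and their precursors, fell from 186 ± 26.3 to 81.4 ± 29.2 CPM (edgeR adjusted p 0.0269). The summed list of 6 dendritic cell markers ran from 46978 to 62085 CPM in WT and from 15678 to 36760 CPM in TCL. Most of that sum was Cd74, H2-Aa and H2-Ab1, while Itgax and Zbtb46 had log2 fold changes of 0.12 and 0.17. In edgeR 1 of the 6 was lower and 0 higher, where 2.67% of all genes tested were lower and 2.04% higher. Markers of other marrow cells were abundant as well: the summed neutrophil list ran from 26854 to 56668 CPM in WT and from 13398 to 30225 CPM in TCL, with 0 of 9 called. Of 8 plasmacytoid dendritic cell markers and 7 T and NK cell markers, 0 were called in edgeR. Ccr9 and Gzma came close, with log2 fold changes of 1.25 and 1.02 (edgeR adjusted p 0.0556 and 0.0512). By the adjusted p in the authors' deposited table they had 0.0014 and 0.0035. In each of these 2 lists 3 genes had log2 fold changes below 0. The monocyte and macrophage list ran from 12684 to 14910 CPM in WT and from 6541 to 7475 CPM in TCL, with 5 of 11 genes lower and 0 higher in edgeR. Apoe, the largest part of that sum in WT, fell from 5829 ± 460 to 1932 ± 680 CPM. C1qa, C1qb and C1qc, also large parts of it, were not called, at log2 fold changes of -1.56, -1.02 and -1.07. Not all genes of this list went down: 8 log2 fold changes were below 0 and 3 above it. These 3 were Csf1r at 0.61 (edgeR adjusted p 0.196), Ly6c2 at 0.04 and Mertk at 0.65, none of them called. The B cell list ran from 304 to 728 CPM in WT and from 203 to 285 CPM in TCL, with 4 of 8 genes lower. Of 8 stromal and vessel markers 5 were lower and 1 higher: Cxcl12, a chemokine of marrow stroma, fell from 137 ± 80.5 to 3.91 ± 2.78 CPM, and Pecam1, a vessel and leukocyte adhesion molecule, rose from 91.6 ± 4.81 to 211 ± 46.1 CPM. The red cell precursor list ran from 39.4 to 51.99 CPM in WT and from 71.0 to 296 CPM in TCL, and these sums did not overlap. Its 3 tested genes all had log2 fold changes above 0, and edgeR called 0 of them. All these cells can express the effectors, and their part in the levels was not tested.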

How the data were processed

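Poly(A) RNA sequencing of sorted bone marrow cells was compared between 3 WT and 3 TCL libraries. The signal the authors deposited is a normalized count per gene and library, per the file headers. The log2 fold change, p-value and adjusted p-value in the same table are the authors' own, per the file headers, and are printed only as such. Per the submitters' processing notes, the tools were cutadapt, HTSeq, STAR 2.4.2a and DESeq2 and the build mm10, the assembly of GRCm38; no roles are stated there. The sources used here do not give annotation or strand setting. Dividing each library's values by the smallest one above 0 gave whole reads for 100% of them, within 0.001, so the deposited signal is a scaled count. Recovered totals ran from 17158819 to 25674314 reads.

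Recovered reads were tested with edgeR 4.0.16 in R 4.3.3: filterByExpr (13010 genes left), TMM factors, quasi-likelihood test, Benjamini-Hochberg adjustment over all genes tested, threshold 0.05. Standard errors are the absolute log2 fold change over the square root of F, and 95% intervals use the moderated degrees of freedom. In data simulated for this comparison over 12834 genes, changes were placed in a small share of the genes, drawn at random. Of these 47% of 2-fold and 85% of 4-fold changes were called by edgeR, with 5 false among 137 calls. Alternatives were other scaling, other filters, DESeq2 1.42.0, limma-voom and limma-trend (limma 3.58.1, pseudocounts 1 and 0.5) and leaving out each library. Column numbers are not the replicate numbers of the labels, so columns were used by group.

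Named genes were all 9 effectors, up to 5 genes of each other interferon list by smallest p, close copies and neighbours of effectors, and the 5 genes most like the effectors' mean. Members and lists were chosen with earlier results of these data known. A gene of the signalling list is not reported here, so no count is given over that list. Exon lengths and positions are from GENCODE M21 and promoter windows from RefSeq (GRCm38.p6).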

Additional observations from a re-analysis of the deposited data

How the results depend on the processing

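The count of called effectors was 0 under all 14 alternatives, and the lowest adjusted p any of the 9 reached was 0.117, for Ifit2 without WT library 3. Of 126 single fold changes of effectors under alternatives 119 kept their sign and 7 did not. Usp18 turned to -0.0015 with at least 5 CPM in 3 libraries. On leaving out 1 library, log2 fold changes ran from -0.17 to 0.40 for Ifit1, from -0.42 to 0.16 for Ifit3 and from -0.16 to 0.28 for Usp18. Of the other named genes, the range spanned 0 for Ifng (-0.61 to 0.17), Ube2l6 (-0.033 to 0.31), Trim25 (-0.0077 to 0.14), Ifit1bl2 (-0.19 to 0.48), Fkbp1b (-0.027 to 0.46), Pdcd10 (-0.078 to 0.35), Ddx28 (-0.067 to 0.296) and Oxnad1 (-0.063 to 0.597). The cause was not tested. Of 11 named genes that were called, 5 kept their call under every alternative, namely Iigp1, Gbp7, Gbp6, Gbp2 and Cd274.

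Over all genes 612 were called, 972 with no filter, 1453 with DESeq2 and 249 to 895 on leaving out 1 library. Scaled to plain library size, 53.8% of calls were higher in TCL, against 43.3% with TMM factors. Of other type I interferon-induced genes DESeq2 called 15 against 8, and leaving out 1 library gave 1 to 10. The count of genes leaning toward interferon-gamma ran from 6 to 9 on leaving out 1 library. No paired analysis was possible because the columns carry none of the replicate numbers of the labels. With 3 libraries a group, 47% of 2-fold changes were called in simulated data, and smaller changes were not simulated. That rate holds for genes drawn at random, with only a small share of genes changed. It is not a rate for the effectors at their own levels and spread, for which the 95% intervals are given above. The small groups limit what the lack of a call for the effectors can show.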

Other observations

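Beside the 9 effectors, some other interferon-induced genes were also high in WT library 3, and these were chosen after their values were seen. Ifi44 had 25.2 CPM there against 8.28 and 8.09 CPM in WT libraries 7 and 9, and 20.1, 26.9 and 14.6 CPM in TCL libraries 4, 8 and 10. Irf7, the factor that amplifies interferon production, had 598 CPM in WT library 3 against 347 and 380 CPM in the other WT libraries, and 562, 497 and 515 CPM in TCL. Oasl1 had 44.1, 21.5 and 23.8 CPM in WT and 42.1, 37.1 and 37.3 CPM in TCL.

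Ifit1bl1, a close relative of Ifit1, was the most uneven of the Ifit genes. It had 30.9, 6.74 and 15.2 CPM in WT and 15.5, 62.9 and 24.6 CPM in TCL, highest in TCL library 8 as was Ifit1, with a log2 fold change of 0.96 ± 0.58 (SE; edgeR adjusted p 0.352). The double-stranded RNA sensor gene Ifih1, by contrast, had 66.3, 32.6 and 50.2 CPM in WT and 94.8, 95.6 and 117 CPM in TCL. Its groups did not overlap, as for 28.2% of all genes tested, and it rose by 1.04 on the log2 scale (edgeR adjusted p 0.041).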
